A study of Mus musculus with 2 samples.

Results

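The S-phase histone-high cycling T cells were 2476 of the 32658 cell barcodes in the series: 1171 of 14524 barcodes (8.06%) in the WT library and 1305 of 18134 (7.20%) in the KO library. Each barcode tags the RNA of a droplet and each RNA molecule carries a unique molecular identifier (UMI). Members were chosen by measured counts. A barcode needed at least 300 genes, at least 3000 UMIs and no more than 5% of its UMIs from mitochondrial genes. It also needed 3 or more UMIs of the T cell genes Cd3d, Cd3e, Cd3g, Trac and Trbc2 in sum, and 5 or more of the proliferation genes Mki67, Top2a, Birc5 and Pclaf. Last, its sum over the histone genes Hist1h1b, Hist1h2ap, Hist1h2ae, Hist1h3c and Hist1h2ab had to reach or pass its sum over the mitosis genes Ccnb1, Ccnb2, Cdc20, Cenpa and Nek2. Differences in these 14 cell cycle genes between members and other barcodes follow from that choice and are given as description.

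A cell copies its DNA in S phase and divides after G2 phase in mitosis (M). Each new stretch of DNA has to be wrapped on new histone proteins, so cells make replication-linked histone messages in large amounts in S phase and destroy them when copying ends. These histone genes lack introns in most cases, sit in clusters, and give messages that end in a stem-loop in place of the poly(A) tail of other messages. Origin licensing factors such as Cdc6 and the Mcm helicase are loaded before S phase starts, whereas cyclin B and Cdc20 serve mitosis. Regulatory T cells (Tregs), marked by the transcription factor Foxp3, restrain other immune cells and expand rapidly after birth.

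The cells were YFP+7AAD- cells from spleens of 7-day-old C57BL/6J mice, with 1 library for WT and 1 for KO. KO mice were Zfp335 fl/fl with Foxp3-Cre, in which the recombinase deletes Zfp335, a zinc-finger transcription regulator, in cells that express Foxp3. Per the study's methods, the WT mice carried the Foxp3-Cre allele as well, and YFP and Cre were expressed from the Foxp3 locus. The number of mice behind each library is not given in the sources used here, and without a replicate library no test between genotypes was possible. All intervals below are 95% intervals for counting error only, exact Poisson for levels, exact binomial (Clopper-Pearson) for shares and conditional exact for ratios.

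Zfp335 was detected with 134 UMIs in WT members and 13 in KO members. These sums equal 7.09 and 0.876 CPM (counts-per-million, the UMIs of a gene scaled by all UMIs of the same barcodes), the unit of all levels summed over the members of a library. The level of Zfp335 in S-phase barcodes, KO to WT, was a ratio of 0.124 (0.0641 to 0.219). It was 0.0548 (0.0175 to 0.132) without barcodes that carried RNA of other lineages (the T-dense members defined with the marker genes) and 0.0546 (0.00129 to 0.359) after thinning to 3000 UMIs. At least 1 Zfp335 UMI was present in 10.8% of WT and 0.920% of KO members. Which part of the gene is deleted is not given in the sources used here, so UMIs from an undeleted end cannot be told apart from undeleted cells.

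Members were deeper than most T barcodes, and WT members were deeper than KO members. The median WT member held 14172 UMIs from 3438 genes, and the median KO member 9286 from 2718. Mitotic (G2/M) cycling T barcodes, which met the same filters with a histone sum below the mitosis sum, had medians of 11795 and 9462.5 UMIs. Non-cycling T barcodes, with no UMI of the 4 proliferation genes, had 5018 and 4552.5. All T barcodes had medians of 6558 and 5415. The members held 29.3% of all UMIs of the WT library and 22.7% of those of the KO library.

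Markers of the label were present in most but not all members. Esco2, the cohesin acetyltransferase of S phase and no part of the rule, had a UMI in 59.4% (56.6 to 62.3) of WT and 58.0% (55.3 to 60.7) of KO members. The same share was 12.8% and 13.9% in G2/M barcodes and 2.47% and 1.76% in non-cycling barcodes. Cd4 had a UMI in 66.5% of WT and 55.9% of KO members, and in 25.3% and 25.6% with each barcode thinned to 3000 UMIs. Of the CD8 genes, Cd8a was found in 1 and 3 members and Cd8b1 in 52 (4.44%) and 94 (7.20%). Foxp3 had a UMI in 23.7% of WT and 22.7% of KO members at the depths above. After each barcode was thinned to 3000 UMIs, the Foxp3 share was 6.83% in WT and 7.74% in KO members, against 13.6% and 14.7% in non-cycling barcodes. Barcodes of other lineages in the same libraries were chosen by 20 or more UMIs of a blood precursor gene list and fewer than 10 T cell UMIs per 10000. They had Foxp3 in 5.19% and 3.48% before thinning, at medians of 18139 and 17992 UMIs. After the same thinning, 1 of 154 in WT (0.649%) and 2 of 115 in KO (1.74%) had it.

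Part of the members carried RNA of other lineages. Of the WT members 109 (9.31%) and of the KO members 88 (6.74%) had 20 or more UMIs of a blood precursor list, mostly erythroid (75 and 48) or myeloid (33 and 38). Among G2/M barcodes 15 in WT (3.63%) and 20 in KO (6.76%) did, and among non-cycling T barcodes 6 (0.424%) and 10 (0.549%). The 7 listed erythroid markers summed to 5380 CPM in WT and 8910 CPM in KO members, and the 7 neutrophil markers to 5723 and 3078 CPM, with no marker at 0. In the median barcode these lists took 0.0299% and 0.0649% (erythroid) and 0.0204% and 0.0170% (neutrophil) of UMIs, so the sums came from few barcodes. The 5 macrophage markers summed to 8.41 and 6.47 CPM and the CD8 markers to 3.39 and 7.55 CPM. Restricting the members to T-dense barcodes, with at least 10 T cell UMIs per 10000 and fewer than 20 UMIs of every precursor list, left 1028 WT (87.8%) and 1191 KO (91.3%) members. Between genotypes 5 of the 7 neutrophil markers were lower in KO over all members (median log2 ratio -0.86), but 7 of 7 were higher in KO over T-dense members (0.97). The erythroid median was 0.68 over all and 1.92 over T-dense members. This restriction was chosen after the data were seen, and the results below are repeated with it where they moved. Scrublet placed 7.94% of WT members among the highest 5% of doublet scores of their library, and 8.05% of KO members among the highest 8%. The cuts differ, so these shares are to be read against 5% and 8%. Across the libraries, 70 barcode sequences occurred in both, 1 of them a member in both.

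The share of T barcodes in the class was nearly the same in both genotypes, while G2/M barcodes were fewer in KO. Members made up 20.4% (19.4 to 21.5) of 5737 WT and 20.9% (19.9 to 21.9) of 6245 KO T barcodes, a difference of 0.485 percentage points (-0.967 to 1.93). G2/M barcodes made up 7.20% (6.54 to 7.90) in WT, with 413 barcodes, and 4.74% (4.23 to 5.30) in KO, with 296. Of the cycling T barcodes, members were 73.9% (71.7 to 76.1) in WT and 81.5% (79.5 to 83.4) in KO. That difference of 7.58 points (4.70 to 10.5) became 4.20 when barcodes were thinned to 3000 UMIs before the rule was applied and 4.44 when at least 3 histone UMIs were required. The share of all T barcodes depended on depth: KO minus WT was 2.43 points after thinning and -3.27 points at a minimum of 1500 UMIs.

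The rule cuts a continuous range, and a fair number of barcodes lay at the border. The 5-gene histone sum had a median of 93 UMIs in WT and 38 in KO members, and the mitosis sum of 6 and 3. Both sums were equal in 45 WT and 61 KO members, and both were 0 in 6 and 18. A further 152 WT and 194 KO members lay 1 to 3 UMIs inside the border, and 90 WT and 55 KO cycling barcodes lay 1 to 3 UMIs outside.

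Within the class the histone level varied widely and reached higher values in WT. At 3000 UMIs per barcode, the 5 rule histones had a median of 19 UMIs (quartiles 3 and 37) in WT and 13 (4 and 23) in KO members. G2/M and non-cycling barcodes had a median of 1 in both genotypes. All 67 listed replication-linked histone genes together had a median of 29 UMIs in WT and 20 in KO members. At most 1 rule histone UMI per 3000 was found in 16.5% (14.4 to 18.7) of WT and 14.9% (13.1 to 17.0) of KO members, which makes these members histone-low despite the label. The range of 10 to 29 UMIs held 25.7% of WT and 42.8% of KO members, and 30 or more was reached by 34.8% (32.1 to 37.6) of WT and 13.7% (11.9 to 15.7) of KO members. Among T-dense members the share with 30 or more was 35.4% and 13.7%.

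**Figure D1:**
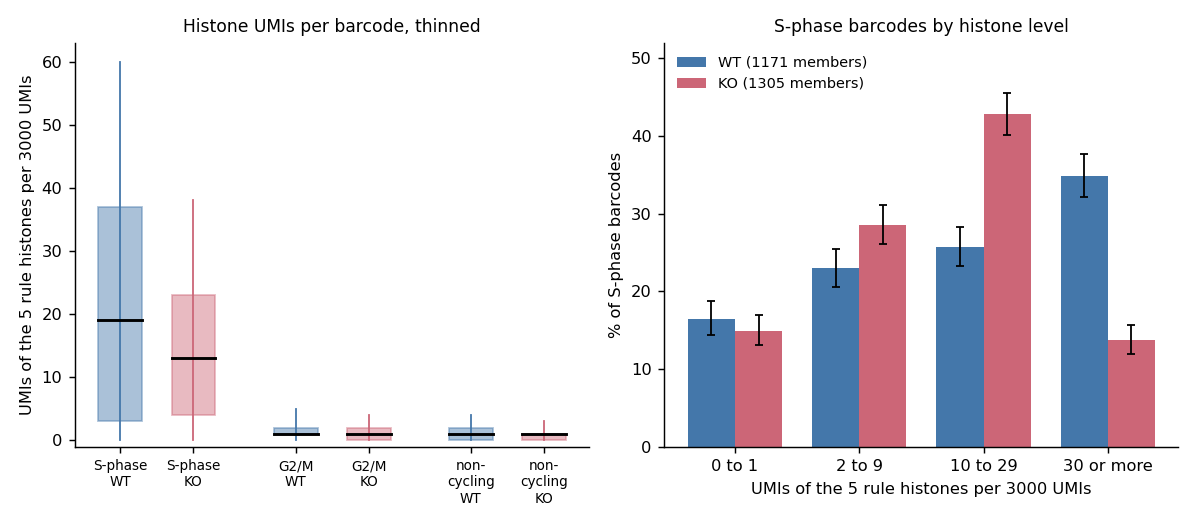
Left, UMIs of the 5 rule histone genes per barcode after thinning to 3000 UMIs, for S-phase, G2/M and non-cycling T barcodes of the WT (blue) and KO (red) library, with the median (line), quartiles (box) and 5th to 95th percentiles (whisker). Right, percent of S-phase barcodes in 4 ranges of that count, with 95% binomial intervals; 34.8% of WT and 13.7% of KO members reached 30 or more.

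The rule histone genes were abundant in the class, as its choice requires. Hist1h2ap, a core H2A gene (chr13:21833026-21833507, minus strand, GRCm38), stood at 3724 CPM in WT and 2907 CPM in KO members. Hist1h1b, a linker histone H1 gene of a single exon (chr13:21779883-21780625, minus strand), stood at 1642 and 605 CPM. Hist1h2ae (chr13:23570517-23571220, minus strand) stood at 1451 and 758 CPM, Hist1h3c at 412 and 246 CPM, and Hist1h2ab at 273 and 116 CPM. Of the 67 listed genes, 54 lie on chromosome 13 between 21715763 and 23934851, 10 on chromosome 3, 2 on chromosome 11 and 1 on chromosome 6. Near-identical copies make single genes uncertain. Over 90-base windows, 92.4% of Hist1h2ap, 31.9% of Hist1h2ae and 0% of Hist1h1b transcript sequence was shared with another listed histone gene, and the median over genes was 33.9%.

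Upstream sequence is shown for 3 histone genes and for an origin licensing and a chromosome gene of the class, because the histone genes differed between genotypes as a group and the other replication genes did not. Each line gives the 200 bases before the RefSeq start, 5′ to 3′ on the gene's strand (RefSeq, GRCm38.p6). Capitals mark the words searched for: the CCAAT box, the TATAAA box, the word AAACACA found in H1 promoters, and the E2F words TTTCCCGC or TTTCGCGC or TTTGCCGC or TTTGGCGC, each on both strands. A base shared by words of different kinds counted for each kind.
Hist1h1b, linker histone, chr13:21780626-21780825, minus strand: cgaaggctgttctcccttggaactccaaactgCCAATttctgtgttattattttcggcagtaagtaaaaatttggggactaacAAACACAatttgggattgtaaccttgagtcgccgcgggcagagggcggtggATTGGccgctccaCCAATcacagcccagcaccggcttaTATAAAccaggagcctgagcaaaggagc
Hist1h1e, linker histone, chr13:23622559-23622758, minus strand: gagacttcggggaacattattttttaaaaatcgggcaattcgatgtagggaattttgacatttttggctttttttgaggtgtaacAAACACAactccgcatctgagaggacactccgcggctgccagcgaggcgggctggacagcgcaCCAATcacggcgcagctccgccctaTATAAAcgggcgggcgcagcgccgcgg
Hist1h2ae, core histone H2A, chr13:23571221-23571420, minus strand: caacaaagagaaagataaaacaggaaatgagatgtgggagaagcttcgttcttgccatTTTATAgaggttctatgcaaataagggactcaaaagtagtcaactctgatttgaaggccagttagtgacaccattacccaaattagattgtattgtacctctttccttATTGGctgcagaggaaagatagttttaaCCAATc
Mcm6, helicase subunit loaded at origins, chr1:128359706-128359905, minus strand: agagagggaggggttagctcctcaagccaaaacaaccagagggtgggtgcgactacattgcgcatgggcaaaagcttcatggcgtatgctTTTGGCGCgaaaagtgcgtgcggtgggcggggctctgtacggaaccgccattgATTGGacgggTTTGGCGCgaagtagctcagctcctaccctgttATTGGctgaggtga
Top2a, topoisomerase of replicated chromosomes, chr11:99024190-99024389, minus strand: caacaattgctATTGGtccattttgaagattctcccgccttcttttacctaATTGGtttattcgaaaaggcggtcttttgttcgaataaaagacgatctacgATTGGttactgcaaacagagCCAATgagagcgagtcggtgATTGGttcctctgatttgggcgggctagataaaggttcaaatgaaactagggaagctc

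The H1 genes shared an arrangement in these windows. In Hist1h1b and Hist1h1e, AAACACA began at -117 and -115, CCAAT at -53 and -52, and TATAAA at -28 and -27 from the start. Within 250 bases before the start, CCAAT was present in all 6 H1 genes, AAACACA in 5 and TATAAA in 4. Of the 62 listed histone genes with a RefSeq promoter, 51 (82.3%) held CCAAT, 29 (46.8%) TATAAA, 9 (14.5%) AAACACA and 8 (12.9%) an E2F word. Over 27025 genes these shares were 34.5%, 13.0%, 6.22% and 1.91%. Origin licensing genes held E2F words in 7 of 15 (46.7%) and TATAAA in none, while mitosis genes held CCAAT in 41 of 52 (78.8%), TATAAA in 2 and E2F words in 2. These matches describe letters in a window and are not binding sites. A window can also cover a neighbouring gene: that of Hist1h2ae reaches into Hist1h2bg, which starts at 23571396 on the plus strand. Words on the opposite strand, such as the TTTATA of Hist1h2ae, can therefore lie in the promoter of the neighbour. The histone shares can count such a word for both genes.

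Compared with the G2/M barcodes, members had higher levels of replication genes well beyond the genes of the rule. Over all 9692 genes with enough UMIs, 436 (4.5%) were at least 1.5-fold higher and 150 (1.55%) at least 1.5-fold lower in members in both libraries. Of 50 histone genes outside the rule, 41 were higher and 0 lower, with median log2 differences of 2.07 in WT and 1.68 in KO. Hist1h1a was 178 CPM in WT members and 9.84 CPM in WT G2/M barcodes, a ratio of 18.1 (13.9 to 24.1), and in KO the ratio was 11.95 (8.28 to 17.9). Hist1h3b differed 16.5-fold in WT and 10.96-fold in KO. Esco2 stood at 104 against 12.5 CPM in WT (8.33-fold, 6.56 to 10.7) and at 117 against 16.9 CPM in KO (6.95-fold). It was the only gene outside the histones among the 10 highest by the smaller ratio of both libraries.

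Each step of DNA copying was represented. Of the origin licensing genes, 11 of 17 were higher in members in both libraries and 0 lower (medians 0.88 in WT and 0.90 in KO on the log2 scale). Cdc6, the loader of the helicase, stood at 45.8 against 21.8 CPM in WT and 41.0 against 12.7 CPM in KO. Of the replication fork genes, 31 of 39 were higher (medians 1.06 and 1.02), among them Pola1, the priming polymerase (3.02-fold in WT and 4.45-fold in KO), Lig1, the ligase of Okazaki fragments (2.30 and 3.05-fold), and Clspn, an adaptor of the checkpoint kinase Chek1 (3.27 and 3.78-fold). Of the nucleotide supply genes, 10 of 20 were higher, with Rrm2, a ribonucleotide reductase subunit, at 2.53 and 3.21-fold. Of the checkpoint and repair genes, 21 of 27 were higher, with Brca1, a gene of homologous recombination, at 3.89 and 2.77-fold. Of the genes for the switch from G1 into S, 14 of 24 were higher, with Ccne1 at 2.61 and 3.71-fold and E2f8 at 5.07 and 3.63-fold. Of the genes that process histone messages or carry histones, 7 of 14 were higher, including Slbp, the stem-loop binding protein (1.87 and 2.50-fold), and the chaperone genes Asf1b, Chaf1a, Chaf1b and Nasp.

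Many mitosis genes outside the rule stood near their G2/M levels in members. Of 54 such genes, 7 were higher in members and 2 lower, and the median was 0.26 in WT and -0.14 in KO. Together they took 1.02% of UMIs in WT members and 1.11% in WT G2/M barcodes, and 1.00% and 1.25% in KO. The genes higher in members were Aurkb, Spc25, Anln and the condensin genes Smc2, Ncapg, Ncapg2 and Ncaph. Ncapg2 differed 3.36-fold in WT and 3.91-fold in KO. The lower genes were Cenpf, a kinetochore protein (228 against 373 CPM in WT and 273 against 694 CPM in KO), and Ckap2. Beyond the lists, Cdkn3 (0.473 and 0.379), Knstrn, a kinetochore adaptor (0.530 and 0.405), and Cep89 (0.346 and 0.216) were among the 10 lowest ratios to G2/M. Ccna2 and Mki67, used in S phase and G2 alike, were within 1.5-fold in both libraries.

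Against non-cycling T barcodes, members had higher levels of cell cycle genes together with lower levels of resting T cell genes. Both groups were chosen by their UMIs of the 4 proliferation genes, so the higher cell cycle genes follow largely from that choice. T barcodes with 1 to 4 such UMIs, 2737 in WT (47.7%) and 2822 in KO (45.2%), were in neither group. Of 10067 genes, 1395 (13.9%) were at least 1.5-fold higher and 971 (9.65%) lower in both libraries. Of the histone genes outside the rule, 47 of 50 were higher, of the replication fork genes 37 of 39, and of the mitosis genes outside the rule 53 of 54 (medians of 3.36 in WT and 3.51 in KO). Neil3, a DNA glycosylase, had the highest ratio of the named genes (41.2-fold, 18.8 to 113, in WT and 35.2-fold in KO), followed by Prtn3, a granule protease. Prtn3 stood at 221 and 234 CPM over all members, and its ratio was 0.55 and 1.40 over T-dense barcodes. Of 22 resting and quiescence genes, 17 were lower in members and 1 higher, with medians of -1.16 and -0.82. Il7r, the interleukin-7 receptor, stood at 31.6 against 92.1 CPM in WT and 34.7 against 60.9 CPM in KO. Mxd4, an antagonist of Myc at its partner Max, was 0.296 and 0.341 of its non-cycling level, and Pik3ip1 0.221 and 0.276. Of 40 interferon response genes, 19 were lower and 1 higher. Foxp3 was 0.373 of its non-cycling level in WT and 0.488 in KO. CPM is a share of UMIs, and because members were deeper than non-cycling barcodes, a lower share is not by itself a lower number of molecules per cell.

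**Figure D2:**
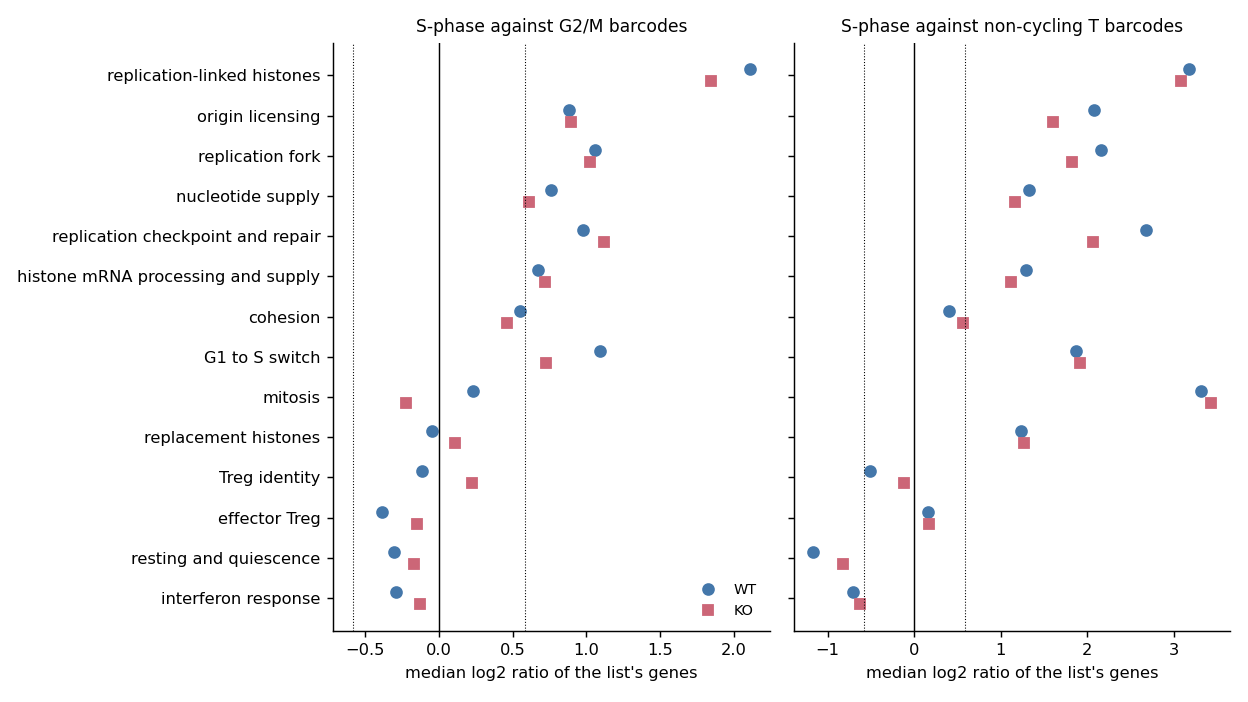
Median log2 ratio over the genes of each list between S-phase and G2/M T barcodes (left) and between S-phase and non-cycling T barcodes (right), in WT (circles) and KO (squares); dotted lines mark 1.5-fold. Histones stand highest against G2/M (2.11 and 1.84), and the mitosis list is near 0 there but above 3 against non-cycling barcodes.

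Members with few and with many histone UMIs differed in a graded way. They were placed in the 4 ranges of 0 to 1, 2 to 9, 10 to 29 and 30 or more rule histone UMIs per 3000, set after the data were seen. In that order Esco2 stood at 13.6, 33.0, 103 and 185 CPM in WT and at 31.0, 73.3, 149 and 223 CPM in KO. Rrm2 stood at 59.1, 144, 211 and 304 CPM in WT and at 89.6, 143, 227 and 346 CPM in KO. H2afx, the replacement histone that marks DNA breaks, stood at 74.7, 134, 280 and 550 CPM in WT and at 105, 255, 534 and 910 CPM in KO. These 3 genes were higher in every successive range in both libraries.

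Origin licensing did not follow the histones. Cdc6 was highest in the second range in WT (38.4, 61.4, 43.1 and 41.4 CPM) and in the lowest range in KO (60.9, 41.5, 34.5 and 36.1 CPM). Mcm6 stood at 190, 208, 189 and 181 CPM in WT and at 213, 163, 130 and 124 CPM in KO. Ccne1, the cyclin of S phase entry, was highest in the third range in WT (38.8, 64.7, 82.1 and 68.4 CPM) and in the last in KO (38.5, 50.5, 61.5 and 76.4 CPM). The mitosis genes outside the rule summed to 3936, 6532, 9972 and 15186 CPM in WT and to 3680, 7603, 12280 and 16072 CPM in KO. In the highest range both sums passed the G2/M level, which was 1.11% of UMIs in WT and 1.25% in KO. The rule bears on the order over the ranges. A barcode with few histone UMIs was a member only if its mitosis sum was no higher. Those with more mitosis UMIs fell into the G2/M class. Top2a, a gene of the rule, stood at 212 and 325 CPM in the lowest range and at 1191 and 1667 CPM in the highest range of WT and KO.

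**Figure D3:**
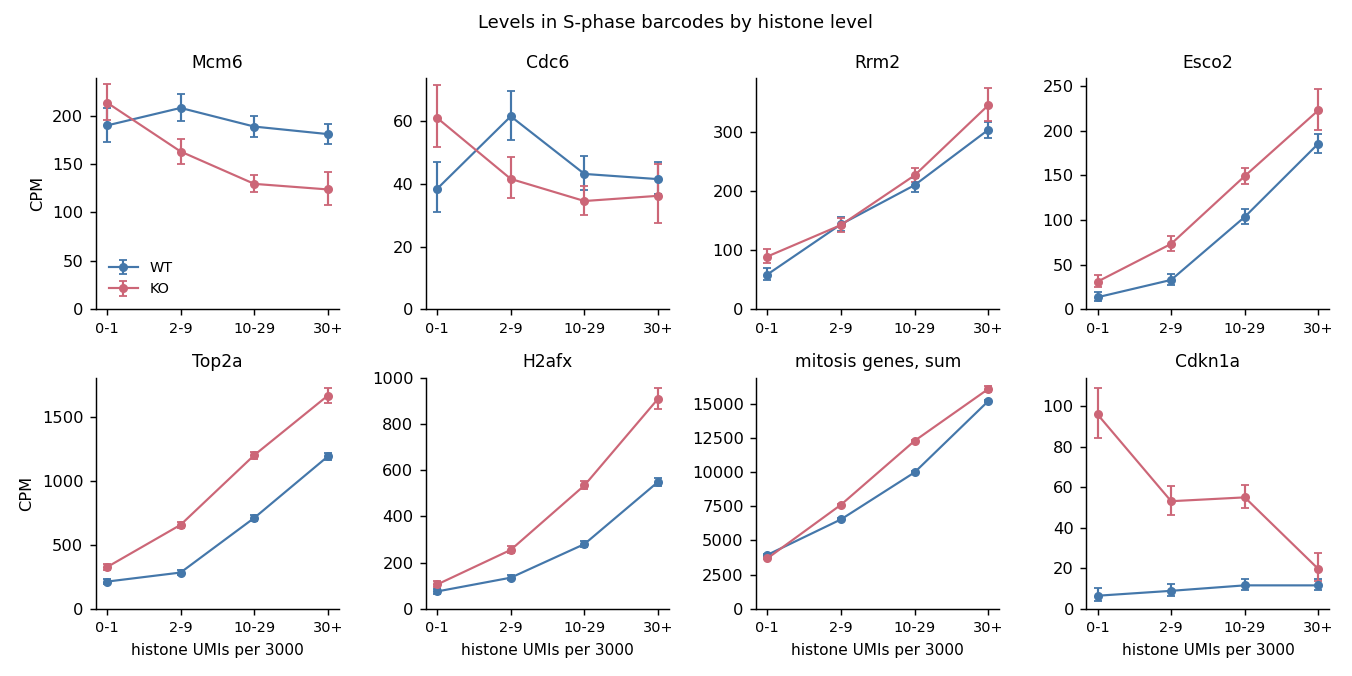
Levels in CPM of 7 genes and of the summed mitosis genes outside the rule in S-phase barcodes of WT (blue) and KO (red), by range of rule histone UMIs per 3000, with 95% Poisson intervals. Rrm2, Esco2, Top2a and H2afx are higher in each successive range, Mcm6 and Cdc6 are not, and Cdkn1a in KO is highest in the lowest range (95.9 CPM). Top2a, the rule histones and the mitosis genes of the rule, which are not in the plotted sum, were used to choose the barcodes.

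Between genotypes, the histone messages of members were lower in KO while the rest of the replication genes differed little. Of 10833 genes with 50 or more UMIs in both libraries together, 648 (5.98%) were at least 1.5-fold higher in KO and 1014 (9.36%) at least 1.5-fold lower, and the median log2 difference over these genes was -0.02. Of 59 histone genes, 30 were lower and 3 higher, with a median of -0.61. Of the 54 histone genes outside the rule, 26 were lower and 3 higher (median -0.57), and over T-dense members 25 of 53 were lower and 2 higher (median -0.53). The 8 listed genes left out had fewer than 50 UMIs. By contrast 0 of 17 origin licensing genes, 0 of 39 replication fork genes, 0 of 20 nucleotide supply genes, 0 of 28 checkpoint and repair genes, 0 of 11 cohesion genes and 0 of 14 histone message processing genes passed 1.5-fold in either direction. The medians of these 6 lists lay between -0.07 and 0.03.

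In sums over all listed genes, those of the rule included, the linker histones had the lowest ratio of the histone families. Summed over its genes, H1 stood at 2948 CPM in WT and 1362 CPM in KO members, a ratio of 0.462 (0.455 to 0.470), and 4 of 5 genes with enough UMIs were lower. H2A stood at 6010 and 4116 CPM (0.685, 0.678 to 0.692), H2B at 768 and 476 CPM (0.620), H3 at 975 and 568 CPM (0.583) and H4 at 808 and 503 CPM (0.622). Single genes of the rule weighed on these sums. In WT members Hist1h1b made up 1642 of the 2948 CPM of H1, and Hist1h2ap 3724 of the 6010 CPM of H2A. With the genes of the rule left out of every family sum, H1 was no longer the lowest family. The order of the families therefore rests on genes of the rule and is given as description. Hist1h1b had a ratio of 0.368 (0.360 to 0.377), Hist1h1e of 0.513, Hist1h1a of 0.547, Hist1h1d of 0.656 and Hist1h1c of 0.749. Among core genes outside the rule, Hist1h3f stood at 148 and 55.5 CPM (0.376) and Hist2h2ac at 256 and 113 CPM (0.442). The exceptions higher in KO were low: Hist2h4 stood at 9.05 and 18.7 CPM (2.07, 1.71 to 2.52), and Hist1h3h and Hist1h2ao stayed below 4 CPM. Hist1h3a, at 51.7 and 69.2 CPM (1.34), was the most abundant listed histone gene with a ratio above 1.

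Of 9 replacement histone genes, which are also expressed outside S phase, 1 was higher in KO and 1 lower (median 0.13). H2afz, the replacement H2A of promoters, stood at 3690 and 3700 CPM (ratio 1.00, 0.991 to 1.01) and H3f3b at 1821 and 1856 CPM (1.02). H2afx, whose message can be made with or without a tail, stood at 313 and 430 CPM (1.37, 1.33 to 1.42). H1f0, the linker histone of resting cells, was lower (109 and 70.5 CPM, 0.648), a ratio in the range of the replication-linked genes, and H1fx was higher (5.08 and 10.8 CPM, 2.12). Of the factors that act on histone messages, Slbp had a ratio of 1.01 (0.971 to 1.06), Casp8ap2 of 0.973 and Nasp of 0.985. Npat, the coactivator of histone genes, stood at 18.9 and 13.0 CPM (0.689, 0.575 to 0.823).

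The lower histone level was also measured outside the class, in family sums that include genes of the rule. G2/M barcodes were chosen by a histone sum below their mitosis sum, which limits their histone level. H1 genes had a KO to WT ratio of 0.531 in G2/M and 0.486 in non-cycling barcodes, and H2A genes of 0.876 and 0.678. The ratio was 0.907 and 0.817 for H2B, 0.824 and 0.666 for H3, and 0.909 and 0.678 for H4. In G2/M barcodes the intervals of H2B and H4 (0.823 to 1.00 each) reached 1, and H1 had the lowest ratio. Of 30 histone genes outside the rule, 6 were lower and 1 higher in G2/M barcodes (median log2 -0.33), against 9.9% and 8.61% of all genes. In non-cycling barcodes 11 of 29 were lower and 2 higher (median -0.37), against 11.9% and 3.68% of all genes. In non-cycling barcodes Hist1h1b stood at 85.9 CPM in WT and 30.3 CPM in KO (0.353), and 35.7% of them in WT and 14.5% in KO held a UMI of it. The non-cycling level of Hist1h1b lay far below the member level in both libraries and had nearly the same ratio between genotypes. The source of these UMIs in non-cycling barcodes was not tested. Because most of these messages lack the poly(A) tail from which the assay copies RNA, their UMIs cover only the tailed or otherwise captured part. Whether capture differed between the libraries was not tested. KO members were shallower than WT members, and with every barcode thinned to 3000 UMIs the median of the replication-linked histones was -0.69.

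**Figure D4:**
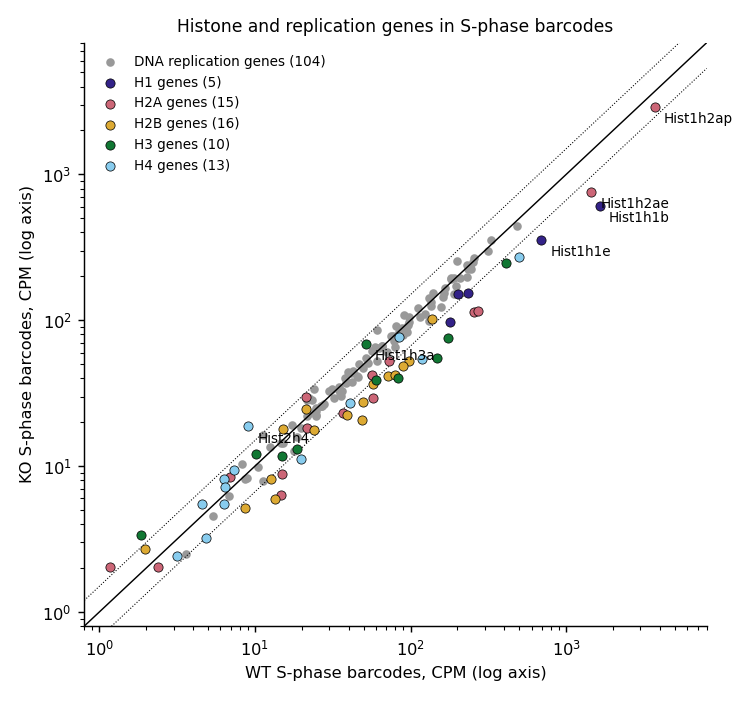
Level in CPM of each listed histone gene with 50 or more UMIs in WT (x axis) and KO (y axis) S-phase barcodes, both on log axes, coloured by family, with 104 other DNA replication genes in grey. The solid line marks equal levels and the dotted lines 1.5-fold; the abundant histone genes lie below the lower dotted line or between the lines, as Hist1h1b (1642 and 605 CPM) and Hist1h2ap (3724 and 2907 CPM) do.

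The remaining cell cycle genes of members differed less between genotypes. Of 59 mitosis genes, 1 was lower in KO, Nek2, a gene of the rule (21.5 and 13.3 CPM), and 0 were higher. The list median was 0.09 in members and 0.40 in G2/M barcodes, where the median of all genes was 0.00. Cenpf had a KO to WT ratio of 1.197 in members and 1.86 in G2/M barcodes. Of the genes for the switch from G1 into S, the D cyclins Ccnd2 (288 and 466 CPM, 1.62, 1.56 to 1.68) and Ccnd3 (147 and 229 CPM, 1.56) were higher in KO and Rbl2, a pocket protein of resting cells, was lower (34.3 and 18.7 CPM). Ccne1 stood at 68.1 and 56.3 CPM (0.828). Cdkn1b, a cyclin-dependent kinase inhibitor, stood at 69.7 and 52.6 CPM (0.755).

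Cdkn1a, the kinase inhibitor that p53 switches on, was higher in KO members, at 10.3 CPM in WT and 57.4 CPM in KO (5.59-fold, 4.78 to 6.57). It had a UMI in 10.3% of WT and 20.4% of KO members, and after thinning in 2.73% and 9.35%. The level was tied to the histone range in KO, with 95.9 CPM (84.2 to 109) at 0 to 1 histone UMIs, between those values in the middle ranges and 19.5 CPM (13.5 to 27.4) at 30 or more. In WT it lay between 6.39 and 11.5 CPM in all ranges. Phlda3, another p53 target, had the highest ratio of all named genes (2.80 and 36.0 CPM, 12.8-fold, 9.67 to 17.4). Of 27 p53 targets, 10 were higher and 1 lower (median 0.38), with Bbc3 at 5.98 and 21.9 CPM and Bax at 192 and 300 CPM. The lower gene was Rrm2b, a ribonucleotide reductase subunit (12.4 and 6.20 CPM). The median of this list was 0.58 in G2/M and 0.14 in non-cycling barcodes.

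Stress and interferon genes were higher in KO members. Of 27 integrated stress response genes, 13 were higher and 0 lower (median 0.57, against 0.27 in non-cycling barcodes), among them Trib3 (1.64 and 13.4 CPM), Ddit3 (17.7 and 39.0 CPM) and the regulator Atf4 (107 and 179 CPM, 1.67-fold). Of 41 interferon response genes, 25 were higher and 0 lower (median 0.74, against 0.61 in non-cycling barcodes), with Isg15 at 30.0 and 113 CPM (3.77-fold, 3.43 to 4.16). Of 15 interleukin-2 and Stat5 genes, 7 were higher and 0 lower (median 0.49). Il2ra, the interleukin-2 receptor alpha chain, stood at 101 and 196 CPM, Cish at 48.7 and 150 CPM, and the survival gene Bcl2 at 66.7 and 193 CPM.

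The T cell state of the members differed in the direction of less effector and more resting genes in KO. Of 27 effector Treg genes, 21 were lower and 0 higher (median -1.82, against -1.71 in non-cycling barcodes). S100a6 stood at 1101 and 122 CPM (0.111, 0.106 to 0.116), S100a4 at 293 and 41.6 CPM, and Icos, a costimulatory receptor, at 83.3 and 36.9 CPM. Cxcr3, a receptor for inflammatory chemokines, had a UMI in 36.9% of WT and 3.07% of KO members, and Klrg1, a marker of terminal effector cells, in 18.0% and 1.07%. Of 22 resting and quiescence genes, 13 were higher and 0 lower (median 0.66, against 0.26 in non-cycling barcodes). Ccr7, a lymph node homing receptor, stood at 32.5 and 115 CPM (3.54-fold), Igfbp4 at 32.9 and 219 CPM (6.67-fold), and Satb1 at 50.6 and 125 CPM. Of 20 T cell receptor signal genes, 7 were higher, including Nr4a1 (27.0 and 55.9 CPM), and 2 lower, Egr3 and Nfatc1. Over T-dense members, 22 of 27 effector genes were lower, 10 of 22 resting genes, 26 of 40 interferon genes, 14 of 27 stress response genes and 11 of 26 p53 targets were higher. Of 19 Treg identity genes, 3 were higher and 6 lower over T-dense members, and 3 higher and 4 lower over all members. Foxp3 stood at 19.2 and 27.0 CPM (1.40, 1.21 to 1.62) and Ikzf2 at 472 and 344 CPM (0.730).

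Some of the most extreme ratios rested on single barcodes. Prss34 and Mcpt8, basophil proteases, had ratios of 0.00633 and 0.0288, but 81.7% and 80.8% of their WT UMIs lay in 1 barcode each, and over T-dense members the ratios were 0.774 and 0.796. Dqx1, at 5.54-fold, had 48.7% of its KO UMIs in 1 barcode, and Ccl1, at 0.0524, had 50.3% of its WT UMIs in 1 barcode. Pf4 (0.0355) had 63.1% of its WT UMIs in 1 barcode. The other named genes were Lta (5.64-fold), Tnfsf8 (6.06-fold), Tcf7l1 (6.404-fold), Drc1 (5.45-fold) and Grifin (5.16-fold) among the higher, and Ccl5 (0.112), Nrn1 (0.112) and Igkc (0.0855) among the lower genes.

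Metabolic gene lists differed less than the effector genes. Of all genes, 9.36% were lower and 5.98% higher in KO members. Of 28 fatty acid oxidation genes, 6 were lower and 0 higher (median -0.32), with Hadha, a subunit of the mitochondrial trifunctional protein, at 121 and 58.4 CPM (0.483, 0.447 to 0.523). All 5 metabolic genes that the study selected were lower, with Ndufa4 at 561 and 233 CPM, Suclg1 at 136 and 61.8 CPM and Actr2 at 143 and 87.6 CPM. That list was chosen by the study on these libraries and is not independent evidence of its direction. Of 87 oxidative phosphorylation genes, 2 were lower and 0 higher (median -0.06), both shares below those of all genes. Of 21 glycolysis genes 4 were lower, including Aldoa (468 and 222 CPM), and 0 higher. Over T-dense members, 7 of 28 fatty acid oxidation genes were lower and 1 higher, and 5 of 21 glycolysis genes were lower and 1 higher. Of 35 Myc and ribosome biogenesis genes, 1 was higher, Myc itself (14.9 and 25.2 CPM). Of 13 genes listed for Zfp335 and genes linked to it, 2 were lower and 0 higher. These were Zfp335 and Ankle2 (17.8 and 4.58 CPM, 0.257), which the paper describes as a direct target of Zfp335 in thymocytes and not as a complex partner.

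**Figure D5:**
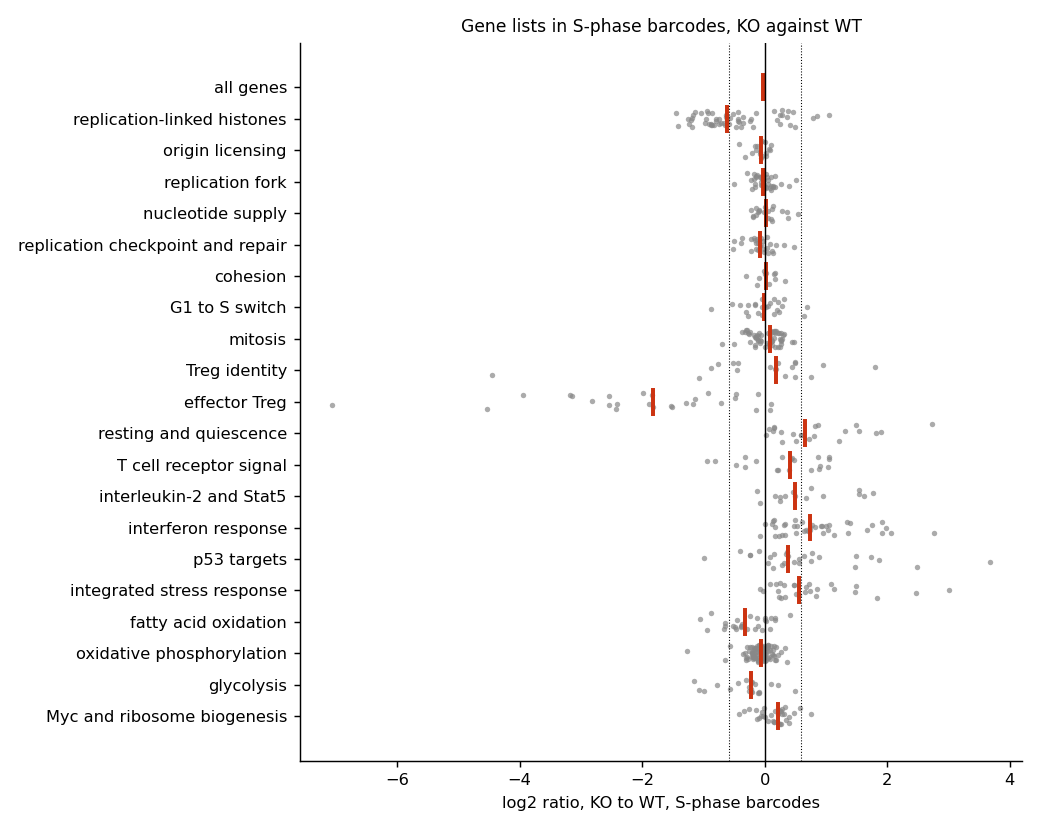
log2 ratio of KO to WT in S-phase barcodes for each gene of a list (grey points) with the list median (red bar) and the median of all genes at the top; dotted lines mark 1.5-fold. The replication lists center on 0, the histone median is -0.61, the effector Treg median -1.82 and the interferon median 0.74.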

How the data were processed

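Splenic YFP+7AAD- cells of WT and KO pups, aged 7 days, were profiled in 1 Chromium library per genotype (Single Cell V3 kit). The deposited matrices hold unnormalised UMI counts for 32285 features, produced by the authors with Cell Ranger 5.0.1 against mm10. Per the study's methods, the authors later removed barcodes with few genes, high mitochondrial share or a doublet call, and the deposited matrices precede these steps. The gene and mitochondrial limits left 8053 WT and 13767 KO barcodes, and the minimum of 3000 UMIs left 5831 and 6319.

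UMIs were summed over the members of a library and scaled to CPM. The members held 18902517 UMIs in WT and 14837563 in KO. With 1 library per genotype no test was run. A gene counted as higher or lower at 1.5-fold, among genes with at least 50 UMIs over both groups. Between classes the same direction was required in both libraries. Log2 ratios had 0.5 UMIs added to each sum. Medians were taken over the tested genes of a list. Shares of barcodes with a UMI were repeated after thinning to 3000 UMIs. Intervals at 95% cover counting error only, since barcodes are not replicates.

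The named genes were the 10 highest and 10 lowest ratios with at least 200 UMIs (for class comparisons by the smaller ratio of both libraries, without genes of the rule), leaving out mitochondrial, sex-linked and unnamed genes, besides the genes of the rule, markers and list genes. The members and the gene lists were chosen with earlier results of these data known. Doublets were not removed, as the rule asks. Scrublet in scanpy 1.11.5 gave scores, and leaving out the highest 5% of WT and 8% of KO barcodes was 1 of 16 alternatives. The computation used Python 3.11.15, numpy 2.4.6, scipy 1.17.1 and pandas 2.3.3 and was tested on simulated counts. Gene positions came from GENCODE on GRCm38 and promoters from RefSeq on GRCm38.p6.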

Additional observations from a re-analysis of the deposited data

Results flagged for a closer look

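A few values stood apart between classes or lay outside the comparisons above. With 1 library per genotype, none of these differences was tested. Prss34 had a KO to WT ratio of 0.00633 in members and of 6.09 in non-cycling barcodes. Mcpt8 had a ratio of 0.0288 in members, 5.11 in G2/M barcodes and 2.30 in non-cycling barcodes. For both basophil genes most WT UMIs of the members lay in 1 barcode. The Treg identity genes had a median log2 ratio of 0.18 in members and of -0.10 in non-cycling barcodes.

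T barcodes with over 5% mitochondrial UMIs, which the rule leaves out, also held histone-high cycling barcodes. Of 483 such WT barcodes 25.3% (21.4 to 29.4) and of 459 such KO barcodes 26.6% (22.6 to 30.9) met the other conditions.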

How the results depend on the processing

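Over 16 alternatives the histone list median between genotypes stayed between -0.69 and -0.53, and those of origin licensing between -0.10 and 0.01, of effector Treg genes between -2.25 and -1.62 and of interferon genes between 0.57 and 0.80. Of the values that answer a comparison, 501 stayed within their error or within 1.5 times and 17 moved. Of the other values, single genes and lists compared between classes among them, 1938 stayed, 101 moved and 1 reversed. The members' share of T barcodes, KO minus WT, was -3.27 points with at least 1500 UMIs and 2.43 points when thinned to 3000 UMIs, so its direction depends on depth. Their share of cycling T barcodes, KO minus WT, was 4.20 points when thinned and 4.44 points with a histone sum of at least 3. The Zfp335 ratio was 0.0546 when thinned and 0.0548 in T-dense members.

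The genes past the fold, KO against WT in S-phase barcodes, numbered 1662, and 1051 when thinned, 6392 with no minimum of UMIs per gene and 860 with at least 200 UMIs. Against G2/M they numbered 586, and 1672 with no minimum and 349 with at least 200 UMIs. Against non-cycling barcodes they numbered 2366, and 1288 when thinned and 4381 with no minimum. The list medians between genotypes that moved were 0.064 for replication checkpoint and repair when thinned, 0.15 for mitosis with the mean of single-barcode CPM, and, in T-dense members, 0.28 for Myc and ribosome biogenesis and -1.31 for the study-selected metabolic genes. The checkpoint and repair median thereby changed sign, as did the log2 ratio of Dqx1 (-0.57 when thinned), the 1 reversed value. The causes were not tested, apart from the smaller or larger number of genes that another minimum admits. No paired analysis was possible because each genotype had 1 library. Genes with few UMIs had wide counting intervals, and the spread between mice is unknown.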

Other observations

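Growth and supply genes can be set beside all genes, of which 13.9% were higher and 9.65% lower in members than in non-cycling barcodes. Of 17 one-carbon and serine genes, 12 were higher in members in both libraries and 0 lower (medians 0.96 in WT and 1.03 in KO). Of 35 Myc and ribosome biogenesis genes, 11 were higher and 0 lower (0.56 and 0.45). Of 87 oxidative phosphorylation genes, 6 were higher and 1 lower (0.37 and 0.24), and for this list both shares lay below those of all genes. Between genotypes, 3 of 19 one-carbon genes were higher in KO members and 0 lower. These were Shmt2, Mthfd2 (102 and 169 CPM), both enzymes of the mitochondrial folate pathway, and Slc1a4, an amino acid transporter. Of 25 RNA polymerase III genes 2 were lower, a share near the 9.36% of all genes.

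Prtn3, the granule protease named against non-cycling barcodes, had a UMI in 11.4% of WT and 12.6% of KO members, with 13.0% and 14.2% of its UMIs in 1 barcode of each library.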
